A study of Mus musculus with 16 samples.

Results

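The 78 mitochondrial ribosomal protein genes described here are the mouse protein-coding genes whose symbol starts with Mrpl or Mrps followed by a digit. They were taken from 21883 protein-coding genes in RefSeq's annotation of GRCm38.p6, whose coordinates are those of mm10. The letters l and s stand for the large and the small subunit, and 49 symbols have the first and 29 the second. Mrps18a and Mrps30 are known as large-subunit proteins in spite of their symbols and were counted there, which gives 51 large-subunit and 27 small-subunit genes. By family, 48 are counterparts of bacterial ribosomal proteins and 30 are specific to mitochondria. The mitochondrial ribosome makes the membrane proteins of the respiratory chain that are encoded in mitochondrial DNA. Its proteins are all encoded in the nucleus and imported, while its ribosomal RNAs are transcribed from mitochondrial DNA, so the particle needs both genomes. It descends from a bacterial ribosome, and aminoglycoside antibiotics such as paromomycin and neomycin are known for binding the decoding site of the bacterial small subunit. The heart muscle cell is rich in mitochondria and takes most of its energy from the respiratory chain.

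Binding of the homeodomain transcription factors Meis1 and Hoxb13, which are studied as regulators of the postnatal cell cycle exit of heart muscle cells, was measured by ChIP-seq (sequencing of DNA recovered with an antibody) in mouse heart ventricles at postnatal day 15. Mice had been injected intraperitoneally from postnatal day 7 over 7 days, either with vehicle (PBS; control) or with paromomycin and neomycin together (Paro/Neo), dosed at 150 mg/kg 2 times daily. Each antibody has 2 control and 2 Paro/Neo libraries. The labels give Meis1/2 as the target of the Meis1 antibody. No strain, sex or genetic change is named in the labels used here. Meis1 and Hoxb13 samples carry titles of different style and have their own inputs, so antibody and sample set cannot be told apart. The labels mention 2 hearts per sample without saying whether they were pooled, and p-values over libraries therefore measure only the spread between these libraries. The names of the second Meis1 lists carry the letter of the other group, and the labels were followed. The 8 inputs were not analysed here.

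A gene was counted as bound in a library when a deposited peak overlapped its body or the 5 kb on either side. Because only peak lists were used, depth is unknown, no lower limit can be given for a missing peak, and an absent call is not an absent factor. The lists differed in length: for Meis1, 3529 peaks (control replicate 1), 3176 (control replicate 2), 1541 (Paro/Neo replicate 1) and 1025 (Paro/Neo replicate 2), and for Hoxb13, in that order, 5202, 1121, 821 and 16963. The longest Hoxb13 list, Paro/Neo replicate 2, stands apart. The counts of members over any Hoxb13 library, over at least 2 and over both antibodies are also given without it. So are the Hoxb13 treatment difference and the antibody difference. Results described in that list alone have no such version. Neither have other counts over several Hoxb13 libraries, such as those at markers and other gene lists or the places of shared regions. Regions of at least 2 libraries lay at 5 of 5 heart muscle markers with each antibody. Other genes of like length gave 9.27% with Meis1 and 26.1% with Hoxb13. With each antibody such regions lay at 1 of 5 markers of other ventricular cells (like-length genes 10.2% and 26.0%). Over all genes the shares were 6.18% and 22.9%. In Hoxb13 Paro/Neo replicate 2 alone, a peak lay at 5 and 4 of the 5 markers (like-length genes 54.9% and 55.5%). The ventricle holds several cell types, and a peak in fewer cells cannot be told apart from a weaker peak in more cells. A peak's fold is the authors' enrichment over background. Its percentile ranks that fold within its own list only and shows no change between lists.

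The sequences that follow are shown because peaks of both antibodies (Mrpl17 and Mrpl34), of 3 Hoxb13 libraries (Mrps12) or, of the Hoxb13 libraries, of the 2 Paro/Neo ones alone (Mrpl52) lay on them, or because a region of all 4 Hoxb13 libraries reached the start (Mrps18b). Each is the 150 bases before the listed RNA start, 5′ to 3′ on the gene's own strand, from the RefSeq promoter table of GRCm38.p6. Capitals mark a match to 1 of the 6 motifs searched.
Mrpl34 (chr8:71464776-71464925, + strand): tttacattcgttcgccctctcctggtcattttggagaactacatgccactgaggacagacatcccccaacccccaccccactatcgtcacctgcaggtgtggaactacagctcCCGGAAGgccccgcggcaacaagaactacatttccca
Mrpl17 (chr7:105811088-105811237, − strand): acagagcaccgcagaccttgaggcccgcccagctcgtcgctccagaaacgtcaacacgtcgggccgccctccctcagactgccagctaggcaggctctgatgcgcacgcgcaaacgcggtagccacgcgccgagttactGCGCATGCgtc
Mrpl52 (chr14:54426759-54426908, + strand): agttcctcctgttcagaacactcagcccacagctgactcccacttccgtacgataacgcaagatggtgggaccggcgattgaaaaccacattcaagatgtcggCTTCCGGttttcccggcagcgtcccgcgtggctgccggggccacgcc
Mrps12 (chr7:28741822-28741971, − strand): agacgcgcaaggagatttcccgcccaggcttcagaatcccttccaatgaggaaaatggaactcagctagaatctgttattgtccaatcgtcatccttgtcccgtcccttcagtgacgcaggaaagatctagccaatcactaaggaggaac
Mrps18b (chr17:35916441-35916590, − strand): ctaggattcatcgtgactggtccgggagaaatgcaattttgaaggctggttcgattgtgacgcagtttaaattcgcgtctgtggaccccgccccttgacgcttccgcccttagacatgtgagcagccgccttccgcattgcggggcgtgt
In Mrpl34 the capitals are the ETS core CCGGAAG, in Mrpl52 the same core read on the other strand, and in Mrpl17 the NRF1 core on the other strand. The stretches of Mrps12 and Mrps18b hold none of the 6 motifs. Peaks of 2 libraries, Hoxb13 control replicate 1 and Paro/Neo replicate 2, covered the Mrps18b stretch. That of Mrpl52 was covered whole by Hoxb13 Paro/Neo replicate 2 and in part by Paro/Neo replicate 1. The Mrpl34 stretch was covered whole by peaks of both Meis1 control libraries and of Hoxb13 Paro/Neo replicate 2. That of Mrpl17 was covered by Meis1 control replicate 1, Hoxb13 control replicate 1 and Hoxb13 Paro/Neo replicate 2.

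Meis1 peaks were few at these genes. A peak lay at 6 of the 78 genes in control replicate 1 (7.69%), 3 in control replicate 2 (3.85%), 1 in Paro/Neo replicate 1 (1.28%) and 3 in Paro/Neo replicate 2 (3.85%). Over all protein-coding genes the shares in these libraries were 8.59%, 8.20%, 4.07% and 2.83%. Other genes of like length, weighted over 10 length classes to match the 78, gave 5.03%, 4.70%, 2.13% and 1.53%. Relative to genes of like length the members therefore lay between −0.857 and 2.66 percentage points, and at no more than 6 genes in any library. A total of 7 members held a Meis1 peak in any library (8.97%, against 11.7% of all genes and 7.07% of genes of like length). Only 3, Mrpl34, Mrpl36 and Mrps34, held a region shared by at least 2 Meis1 libraries, which is 3.85% against 6.18% of all genes and 3.46% of genes of like length.

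Mrpl36, a large-subunit protein with a bacterial counterpart, held the region called in all 4 Meis1 libraries, which was 1.28% of members against 1.75% of all genes. The region of 345 bp (chr13:73336768-73337112) lay 4590 bp beyond the gene's end and had no nearer protein-coding gene. Its fold was 9.45 in control replicate 1, 10.5 in control replicate 2, 5.90 in Paro/Neo replicate 1 and 6.25 in Paro/Neo replicate 2. The 2 control values were above the 2 Paro/Neo values without overlap, though folds of separate lists are not on 1 scale. With the second Meis1 libraries exchanged, 9.45 and 6.25 would stand against 5.90 and 10.5, and the groups would overlap. Within their lists these peaks stood at the 95.8, 96.9, 75.0 and 77.7 percentiles of fold, in the same order. This distance lies just inside the 5 kb window. With a window of 1 kb, 1 member, Mrpl34, remained with a Meis1 region in at least 2 libraries (all genes 5.41%, like-length genes 2.56%).

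Mrpl34 encodes a small large-subunit protein with a bacterial counterpart, and its gene body spans 828 bp on chromosome 8. A Meis1 region of 637 bp (chr8:71464391-71465027) covered its start and overlapped the neighbouring gene Abhd8. Its fold was 4.06 and 4.68 in control replicates 1 and 2, at the 27.7 and 46.7 percentiles, and neither Paro/Neo list held a peak there. Among the 78 genes it alone was called in the 2 Meis1 control libraries and not in Paro/Neo, 1.28% of members against 2.42% of all genes. In the reverse pattern stood 0 members and 0.0320% of all genes. Both patterns follow the labels: with the second Meis1 libraries exchanged, Mrpl34 would have 1 call in each group. Mrps34, a mitochondria-specific small-subunit protein, had a Meis1 region of 362 bp inside the neighbouring gene Mapk8ip3, 2707 bp from its own body. Its fold was 5.04 in control replicate 1, 4.77 in control replicate 2 and 4.37 in Paro/Neo replicate 2, and no peak was listed in Paro/Neo replicate 1. At the other 4 genes 1 Meis1 library held a peak: control replicate 1 at Mrpl17 (fold 5.0), Mrpl18 (3.76) and Mrpl30 (3.14), and Paro/Neo replicate 2 at Mrps36 (4.59).

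Hoxb13 peaks lay at many of these genes in 2 of the 4 libraries and at few in the other 2. A peak was present at 26 of 78 members in control replicate 1 (33.3%), 4 in control replicate 2 (5.13%), 2 in Paro/Neo replicate 1 (2.56%) and 59 in Paro/Neo replicate 2 (75.6%). All protein-coding genes gave 24.2%, 5.79%, 4.20% and 46.5%, and genes of like length 23.5%, 6.17%, 4.34% and 43.3%. The 2 long lists were thus 9.82 and 32.3 points above genes of like length, while the 2 short lists differed from them by −1.04 and −1.78 points. High and low libraries occurred in both treatment groups, so the groups overlapped. With any Hoxb13 library counted, 60 members had a peak (76.9%, against 47.6% of all genes and 44.3% of genes of like length). Without Paro/Neo replicate 2 the count was 26 (33.3%, against 24.7% and 23.9%).

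**Figure D1:**
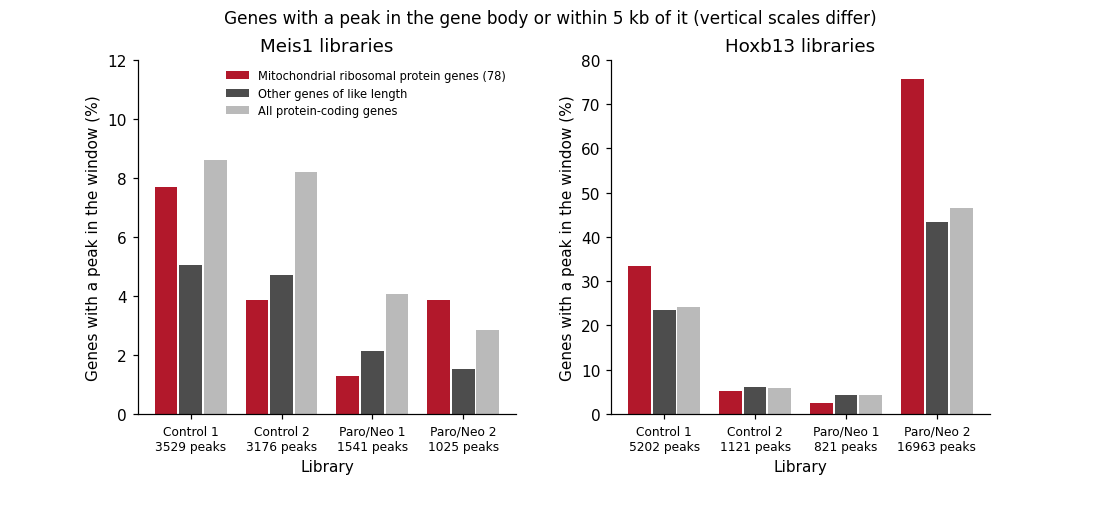
Share of genes (%) with a peak in the gene body or within 5 kb, by library, for the 78 mitochondrial ribosomal protein genes, other genes of like length and all protein-coding genes; the bars are values of single libraries, the number of peaks stands under each, and the vertical scales of the 2 panels differ. The members stand above genes of like length in the 2 long Hoxb13 lists (33.3% against 23.5% and 75.6% against 43.3%) and within 3 points of them in the other 6 libraries.

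None of the comparisons between libraries passed the test. The excess over genes of like length averaged 9.83 ± 15.9 percentage points (SD, n = 4) with Hoxb13 and 0.818 ± 1.93 points (SD, n = 4) with Meis1, a difference of 9.01 points (exact two-sided permutation test over 70 orders, p = 0.429). With Hoxb13 it was 15.3 ± 24.1 points in Paro/Neo and 4.39 ± 7.68 points in control (SD, n = 2 each), a difference of 10.9 points (exact permutation test, p = 1.00). With Meis1 it was 0.735 ± 2.24 points in Paro/Neo and 0.901 ± 2.49 points in control (SD, n = 2 each), a difference of −0.166 points (exact permutation test, p = 1.00). A test of 2 libraries against 2 has 6 orders and cannot give a p below 0.333. The treatment differences of the 2 antibodies differed by 11 points (exact permutation test over 36 orders, p = 0.778). Each of these orders has a mirror order of the same size, so this test could not reach 0.05 either. Without Hoxb13 Paro/Neo replicate 2 the Hoxb13 treatment difference became −6.17 points and the antibody difference 1.52 points.

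With peaks ranked by fold, the excess in the long Hoxb13 lists was small or negative at the 1000 and 2000 strongest peaks and present at 5000. Among the 1000, 2000 and 5000 strongest peaks of control replicate 1, 5, 7 and 26 members had a peak, and the excess over like-length genes was 0.309, −1.65 and 10.5 points. In Paro/Neo replicate 2 the same 3 depths gave 2, 8 and 24 members with an excess of −3.16, 0.177 and 10.4 points. At 10000 peaks it had 37 members and 15.7 points. At the 5000 strongest peaks the 2 long lists thus gave nearly the same excess. With only peaks of −log10 q of at least 2, the excess was 4.47 points in control replicate 1 and 25.7 points in Paro/Neo replicate 2. When every Hoxb13 list was shortened to its 821 strongest peaks, each control list held 4 members, Paro/Neo replicate 1 held 2 and Paro/Neo replicate 2 held 1. At that length like-length genes stood at 5.14%, 4.64%, 4.34% and 4.93% in the same order.

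In the long lists the folds at members were near or below those of the whole list. The 84 peaks at members in Hoxb13 Paro/Neo replicate 2 had a median fold of 3.05 beside 3.1 for the whole list, and the 27 in control replicate 1 had 3.06 beside 3.28. Their median percentiles were 44.8 and 26.2. The median −log10 q of these peaks was 2.62 beside 2.37 for the list in Paro/Neo replicate 2, and 2.12 beside 2.21 in control replicate 1. Of the 84 peaks, 6 stood above the 90 percentile, at Mrpl1, Mrpl48, Mrpl53, Mrps5, Mrps18b and Mrps36, and 16 stood below the 10 percentile.

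A Hoxb13 region shared by at least 2 libraries lay at 24 members (30.8%), against 22.9% of all genes and 22.5% of genes of like length. Of these regions, 19 were shared by the 2 long lists alone. In those lists 25 members had a peak in both, which is 96.2% of the 26 of control replicate 1 and 42.4% of the 59 of Paro/Neo replicate 2. Over all genes the same shares were 95.6% and 49.8%. Without Paro/Neo replicate 2 the count fell from 24 to 3 (Mrps12, Mrps18b and Mrps34; all genes 6.56%), and without control replicate 1 it fell to 5 (all genes 7.19%). A region of at least 3 Hoxb13 libraries lay at 4 members, Mrpl55, Mrps12, Mrps18b and Mrps34 (5.13% against 6.80% of all genes). Mrps18b was the 1 member called in all 4 (1.28% against 2.84%). Both control libraries and neither Paro/Neo library held a region at 0 members and 0.0137% of all genes, and the reverse pattern occurred at Mrpl52 alone (1.28% against 0.169%).

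**Figure D2:**
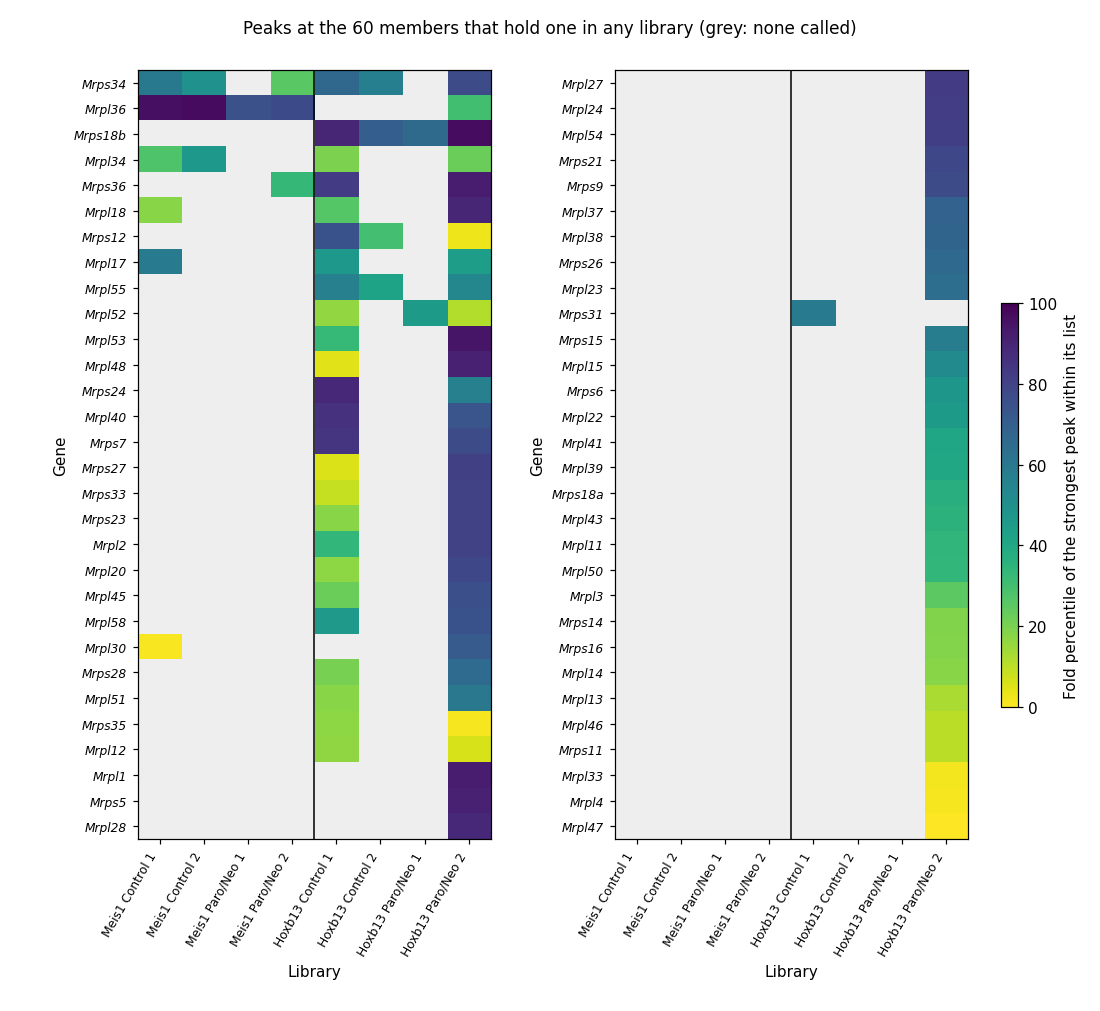
Fold percentile within its own list (colour, 0 to 100) of the strongest peak at each of the 60 members with a peak in any library (rows), by library (columns, Meis1 left of the line and Hoxb13 right of it); grey means no peak called. Most rows are filled in Hoxb13 control replicate 1 and Paro/Neo replicate 2 only or in the latter alone, and Mrpl36 is filled in all 4 Meis1 libraries.

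Among the small-subunit genes, Mrps18b, a counterpart of a bacterial protein, had the most widely called Hoxb13 region. It spanned 5757 bp (chr17:35916176-35921932) from the start of Mrps18b into Ppp1r10, which encodes a regulatory subunit of a nuclear protein phosphatase. The fold was 4.04 in control replicate 1, 3.75 in control replicate 2, 3.74 in Paro/Neo replicate 1 and 4.47 in Paro/Neo replicate 2. The control values lay between the 2 Paro/Neo values. These peaks stood at the 89.2, 70.3, 65.5 and 96.6 percentiles of their lists. In control replicate 2 and Paro/Neo replicate 1 the peak lay inside Ppp1r10, 1440 and 1362 bp from Mrps18b.

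Mrps12 encodes the small-subunit protein at the decoding site, the counterpart of bacterial S12, in which changes are known to alter aminoglycoside response in bacteria. Its region of 589 bp (chr7:28741706-28742294) lay over its start and overlapped Sars2, whose gene begins next to it and encodes the mitochondrial seryl-tRNA synthetase. The fold was 3.61 in control replicate 1, 3.22 in control replicate 2 and 2.57 in Paro/Neo replicate 2, and Paro/Neo replicate 1 listed no peak. The percentiles were 74.9, 29.7 and 2.68, so the peak of the longest list was among its weakest. The control peaks began 29 and 11 bp before the Mrps12 start, on the Sars2 side, in the printed stretch. At Mrps34 a Hoxb13 region of 4604 bp overlapped the gene and ran beyond it, with folds of 3.46 and 3.04 (2 peaks) in control replicate 1, 3.54 in control replicate 2 and 3.47 in Paro/Neo replicate 2. It reached Nme3 and Mapk8ip3, and the peak of control replicate 2 lay 214 bp from Mrps34. A further region of all 4 Hoxb13 libraries lay 5630 bp from Mrps34, just outside the window.

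Mrps7, whose bacterial counterpart starts the assembly of the small subunit's head, had a peak over its start, also overlapping Gga3, in the 2 long lists (fold 3.84 and 2.84; 84.7 and 19.9 percentiles). Mrps5, a counterpart of the bacterial protein that bears on decoding accuracy, had a peak 16 bp before the gene in Paro/Neo replicate 2 alone (fold 3.92, 91 percentile). Mrps24 had a peak of fold 4.03 in control replicate 1 (89.0 percentile). Mrps23 held 5 separate peaks in Paro/Neo replicate 2, with folds from 2.56 to 3.54, 1 of which overlapped the peak of control replicate 1 (fold 2.98). Mrps27 shared its region with Ptcd2, a mitochondrial RNA-processing gene (fold 2.80 and 2.72 in the long lists). Mrps31 was the member with a peak in control replicate 1 and no other library (fold 3.36). Mrps33 (2.87 and 3.55), Mrps28 (3.01 and 3.27) and Mrps35 (2.97 and 2.49) had regions with these folds in control replicate 1 and Paro/Neo replicate 2. At Mrps36, which is known as a component of the 2-oxoglutarate dehydrogenase complex, the region of the long lists lay 4712 bp away at Cdk7 (fold 3.79 and 2.61), just inside the window. No library had a peak at Mrps2, Mrps10, Mrps17, Mrps18c, Mrps22 or Mrps25. Paro/Neo replicate 2 was the only library with a peak at Mrps5, Mrps6, Mrps9, Mrps11, Mrps14, Mrps15, Mrps16, Mrps21 and Mrps26. By subunit, 12 of 27 small-subunit genes had a peak in control replicate 1 (44.4%, like-length genes 24.2%) and 20 in Paro/Neo replicate 2 (74.1%, like-length genes 45.2%).

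Among large-subunit genes the counts were 14 of 51 in control replicate 1 (27.5%, like-length genes 23.2%) and 39 in Paro/Neo replicate 2 (76.5%, like-length genes 42.5%). Mrpl52, a mitochondria-specific protein, had the region found in the Paro/Neo libraries only. Its 299 bp (chr14:54426744-54427042) lay over the start, with a fold of 3.47 in Paro/Neo replicate 1 and 2.33 in Paro/Neo replicate 2. The −log10 q values, 1.40 and 1.24, were near the smallest listed, 1.00, and the second peak stood at the 0.383 percentile of its list. Control replicate 1 held a different peak, 1717 bp beyond the gene and within Mmp14. At Mrpl55 the region of 3 libraries lay 2061 bp away, within 2310033P09Rik (fold 3.34 and 3.37 in the control replicates and 3.14 in Paro/Neo replicate 2).

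Mrpl12 forms the flexible stalk that recruits translation factors, and its start carried a peak in the 2 long lists (fold 2.96 and 2.66; 16.5 and 5.62 percentiles). Mrpl11, at the base of that stalk, had a peak over its start in Paro/Neo replicate 2 alone (fold 2.96). Mrpl3, near the site of peptide bond formation, and Mrpl4, at the exit tunnel, had peaks in that library alone, with folds of 2.88 and 2.50. Mrpl58, which releases peptides from stalled mitochondrial ribosomes, had a region in the 2 long lists with folds of 3.23 and 3.43. Mrpl53 had a start peak of fold 4.15 in Paro/Neo replicate 2 (94.3 percentile) and 3.12 in control replicate 1. Mrpl40 shared its region with Hira, a histone chaperone gene, with folds of 3.90 and 3.41. Control replicate 1 and Paro/Neo replicate 2 also shared regions at Mrpl45 (fold 3.03 and 3.44), Mrpl51 (2.98 and 3.21), Mrpl48 (2.78 and 2.84), Mrpl2 (3.13 and 3.17, in Cul7) and Mrpl20 (2.97 and 3.08, in Ccnl2). Mrpl44, a protein with an RNase III fold, had no peak in any library, nor had Mrpl9, Mrpl10, Mrpl16, Mrpl19, Mrpl21, Mrpl32, Mrpl35, Mrpl42, Mrpl49, Mrpl57 or Mrps30. Over both subunits, 18 members had no peak in any library, and these were also the members without a peak in any Hoxb13 library. The other 60 (76.9%) stand beside 47.6% of all genes and 44.3% of like-length genes with a peak in any Hoxb13 library. The share of all genes without a peak of either antibody was not computed. Paro/Neo replicate 2 was the only Hoxb13 library with a peak at 34 members (43.6%, against 22.9% of all genes and 20.4% of genes of like length). The large-subunit genes among them were Mrpl1, Mrpl3, Mrpl4, Mrpl11, Mrpl13, Mrpl14, Mrpl15, Mrpl22, Mrpl23, Mrpl24, Mrpl27, Mrpl28, Mrpl30, Mrpl33, Mrpl36, Mrpl37, Mrpl38, Mrpl39, Mrpl41, Mrpl43, Mrpl46, Mrpl47, Mrpl50, Mrpl54 and Mrps18a.

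Members with a bacterial counterpart and members specific to mitochondria were both above genes of like length in the longest list. There, 37 of 48 genes with a bacterial counterpart had a peak (77.1% against 44.1%), as did 22 of 30 mitochondria-specific genes (73.3% against 42.3%). In control replicate 1 the first group had 12 (25% against 24.0%) and the second 14 (46.7% against 22.9%). The difference between the families was not tested.

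Peaks of both antibodies lay at 7 members, Mrpl17, Mrpl18, Mrpl30, Mrpl34, Mrpl36, Mrps34 and Mrps36 (8.97%, against 9.27% of all genes and 5.77% of genes of like length). At 5 of these the Meis1 and Hoxb13 peaks shared at least 1 bp (6.41%, against 5.25% and 3.93%). Without Hoxb13 Paro/Neo replicate 2 the counts were 5 (all genes 5.11%, genes of like length 3.60%) and 4 (all genes 1.90%, genes of like length 1.75%). At Mrpl17, a large-subunit protein with a bacterial counterpart, a Meis1 peak of fold 5.0 and Hoxb13 peaks of fold 3.24 and 2.99 covered the printed stretch. At Mrpl18 the shared site overlapped the gene body and Tcp1, a cytosolic chaperonin gene, with a Hoxb13 fold of 3.06 in control replicate 1 and 3.82 in Paro/Neo replicate 2. There only the peak of Paro/Neo replicate 2 covered the Mrpl18 start, and those of Meis1 control replicate 1 and Hoxb13 control replicate 1 ended 6 and 51 bp from it. At Mrpl36 the strong Meis1 region held no Hoxb13 peak, and the 3 Hoxb13 peaks of Paro/Neo replicate 2 there had folds of 2.67, 2.70 and 2.92.

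The promoter table gives a start for 69 of the 78 members and for 17491 genes. In Hoxb13 Paro/Neo replicate 2 a peak lay over the start of 37 members (53.6%), against 29.1% of all genes with a listed start. In control replicate 1 the count was 8 (11.6% against 12.2%), in control replicate 2 it was 0 (1.88% of all genes) and in Paro/Neo replicate 1 it was 1 (1.18% of all genes). Within 1 kb of the start the members stood at 60.9% and 23.2% in the 2 long lists, against 35.6% and 17.9% of all genes. Meis1 peaks covered the starts of Mrpl17 and Mrpl34 in control replicate 1, of Mrpl34 in control replicate 2, and of 0 members in the Paro/Neo libraries. Over all genes with a listed start the shares were 0.738% and 0.766% in the control and 0.229% and 0.206% in the Paro/Neo libraries. Of the 24 members with a Hoxb13 region in at least 2 libraries, 21 have a listed start, and the region lay over it in 15. The matching share of all genes was not computed.

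**Figure D3:**
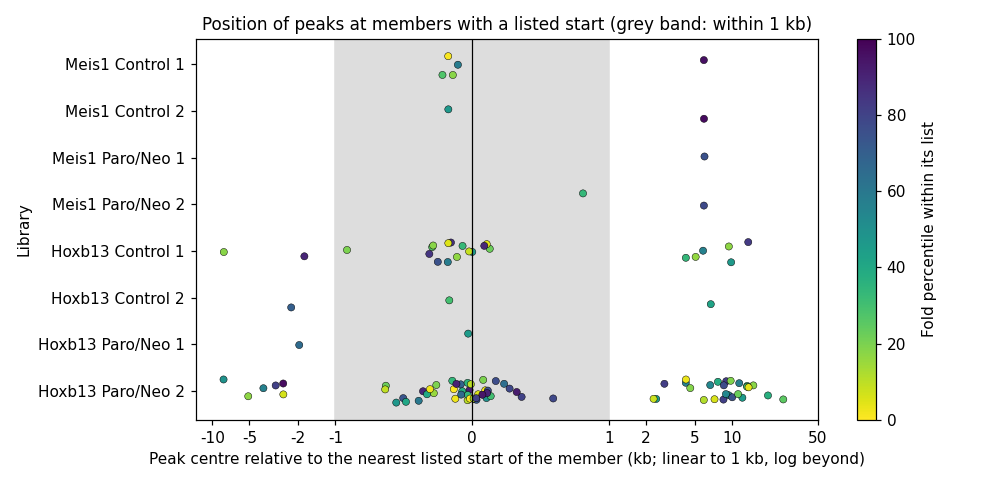
Distance (kb, linear to 1 kb and logarithmic beyond) from the nearest listed start of a member to the centre of each peak at it, by library, with each point 1 peak at 1 member, coloured by its fold percentile (a peak at 2 members gives 2 points); positive values are downstream. In Hoxb13 Paro/Neo replicate 2, 42 of 74 points lie within 1 kb of a start, 6 upstream and 26 downstream of that band, and in Hoxb13 control replicate 1 the counts are 15, 2 and 6.

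Mitochondrial ribosomal protein genes are short and closely packed, and peaks at them often belonged to a neighbour as well. The median length was 7.69 kb, against 17.2 kb over all protein-coding genes. Another protein-coding gene overlapped the window of 60 of the 78 members (76.9%), against 53.5% of like-length genes and 49.1% of all genes. Of the 24 Hoxb13 regions shared by at least 2 libraries, 17 had another protein-coding gene within 1 kb, and 7 did not. Such a region near no other gene lay at 12.9% of all genes and 10.5% of like-length genes. Any such region lay at 22.9% and 22.5%. Of the 84 Paro/Neo replicate 2 peaks, the member was the nearest gene alone for 42 and jointly with another gene for 22. Of the 27 control replicate 1 peaks these counts were 10 and 7, and no such counts were made for peaks at all genes. With genes also grouped by number of neighbours the excess was 4.70 points in control replicate 1 and 22.8 points in Paro/Neo replicate 2. When each peak was given to its nearest gene it was 3.44 and 30.5 points. The neighbours' part in these counts was not otherwise tested.

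Other genes of mitochondrial translation, and genes of the cytosolic ribosome, were also above genes of like length in the longest Hoxb13 list. The 22 genes counted as mitochondrial aminoacyl-tRNA synthetases include Qrsl1, Gatb and Gatc, which are not synthetases. In Paro/Neo replicate 2 a peak lay at 12 of 16 mitochondrial translation factors (75.0%, like-length genes 49.3%), 18 of 22 mitochondrial aminoacyl-tRNA synthetases (81.8% against 52.2%) and 13 of 21 assembly and ribosomal RNA factors (61.9% against 48.8%). All 5 mitochondrial ribosomal proteins without an Mrp symbol (Dap3, Ptcd3, Aurkaip1, Chchd1 and Gadd45gip1) had a peak in that list (like-length genes 38.0%). In control replicate 1, 3 of the 5 had a peak (like-length genes 20.8%). Cytosolic ribosomal protein genes had a peak at 78 of 84 (92.9% against 34.6%), and nuclear genes of the respiratory chain at 73 of 84 (86.9% against 41.5%). In control replicate 1 the counts were 6 of 16 translation factors (37.5% against 25.8%), 10 of 22 synthetases (45.5% against 26.9%), 6 of 21 assembly factors (28.6% against 25.8%), 46 cytosolic ribosomal genes (54.8% against 20.0%) and 38 respiratory chain genes (45.2% against 22.6%). Mtrf1l, a mitochondrial release factor, was called in all 4 Hoxb13 libraries (6.25% of translation factors, like-length genes 3.11%). So were 7 respiratory chain genes (8.33% against 2.99%) and 2 cytosolic ribosomal genes (2.38% against 3.24%), beside 2.84% of all genes. Sars2, Dhx30, an RNA helicase of mitoribosome assembly, and Mrm1, a methyltransferase of mitochondrial ribosomal RNA, were called in at least 3. These made 4.55% of synthetases (against 7.29%) and 9.52% of assembly factors (against 7.36%), beside 6.80% of all genes. Regions of at least 2 Meis1 libraries lay at 1 translation factor, Mrrf (6.25%, like-length genes 4.45%), and 2 synthetases, Ears2 and Lars2 (9.09% against 6.96%). They lay at 4 respiratory chain genes (4.76% against 2.91%), 0 cytosolic ribosomal genes (like-length genes 2.19%) and 0 assembly genes (like-length genes 4.05%). The share of all genes was 6.18%. The lists were not tested against each other.

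**Figure D4:**
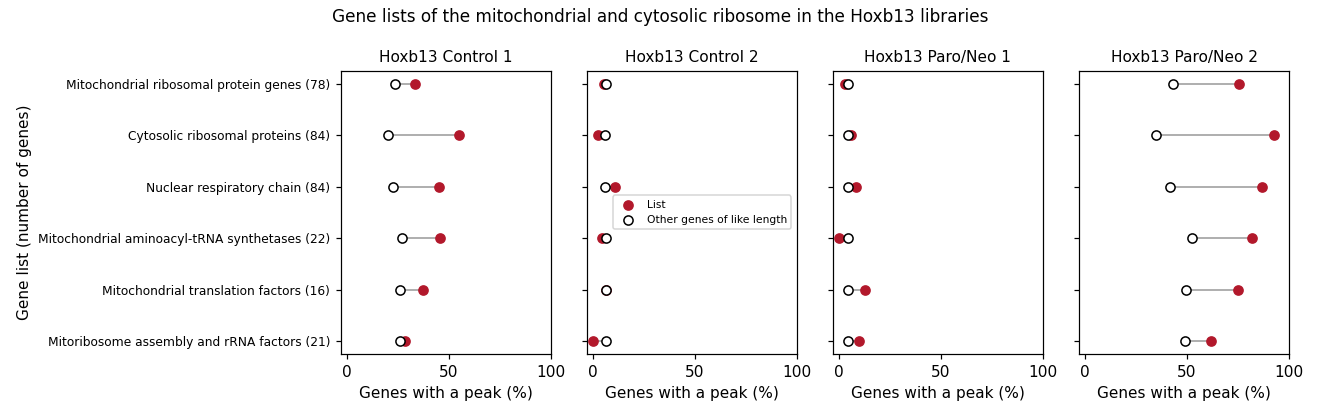
Share of genes (%) with a Hoxb13 peak in the gene body or within 5 kb, by library (panels), for 6 lists of ribosome and respiratory chain genes (filled points) and for other genes of like length (open points). The filled points lie to the right of the open ones in all 6 lists in control replicate 1 and Paro/Neo replicate 2, and lie on either side of them in the other 2 libraries.

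The listed promoters, 250 bases before to 50 after the start, were searched on both strands for 6 motifs, none of which contains another. The Meis core TGACAG was found at 16 of 69 members (23.2%) and 21.2% of all genes. The Hoxb13 core CAATAAA was found at 2 members, Mrpl33 and Mrpl53 (2.90%), and 4.58% of all genes, and its variant TCGTAAA at 0 members and 0.680% of all genes. Cores of factors known at promoters of mitochondrial genes were found more often at members: the ETS core CCGGAAG at 26 (37.7%, all genes 12.9%), the YY1 core ATGGCG at 19 (27.5%, all genes 12.4%) and the NRF1 core GCATGCGC at 8 (11.6%, all genes 3.93%). Members had a median GC content of 58.3%, beside 57.3% over all genes, and a median of 21.0 CG pairs, beside 15.0. Among the 37 members with a Paro/Neo replicate 2 peak over the start, 40.5% held the ETS core and 21.6% the Meis core. Among the 32 without, the shares were 34.4% and 25%. Over all genes the ETS core was held by 22.4% of those with such a peak and 9.08% of those without, and the Meis core by 19% and 22.1%. The YY1 core was held by 21.6% of members with such a peak and 34.4% of those without (all genes 20.8% and 8.96%). For the NRF1 core the shares were 10.8% and 12.5% (all genes 6.41% and 2.92%). For CAATAAA they were 5.41% and 0 (all genes 3.09% and 5.19%), and for TCGTAAA 0 and 0 (all genes 0.786% and 0.637%). A match describes letters in this window and not a bound site.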

How the data were processed

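Peaks were called on mm10, per the submitters' processing notes, which name FastQC 0.11.5, Bowtie2, Picard 1.127, MACS2 and HOMER. For the caller's options and control, the sources used here give nothing. The deposited broadPeak files hold 1 list per library, with the fold enrichment as a ratio set by the authors. Each peak also has the authors' −log10 p and −log10 q, of which the lowest q entry is 1.00. The deposited score is 10 times −log10 q, rounded down, in 100% of peaks, and was not used.

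Chromosomes 1 to 19, X and Y were analysed with Python 3.11.15, pandas 2.3.3 and scipy 1.17.1. Peaks of an antibody's 4 libraries were merged into regions where they shared at least 1 bp. The excess share was the percent of members with a peak minus that of other protein-coding genes in the same of 10 length classes, weighted as the members. It was compared by exact two-sided permutation of libraries (70 orders between antibodies, smallest p 0.0286). The calculation was checked on artificial peaks. Members, lists and tests were chosen with earlier results of these data known. Genes were named with values by a rule: members with a region in at least 2 Meis1 or 3 Hoxb13 libraries, or in both libraries of a single treatment, and 10 chosen by role (Mrps2, Mrps5, Mrps7, Mrps12, Mrps34, Mrpl3, Mrpl4, Mrpl11, Mrpl12 and Mrpl44). Other genes given with values were chosen after their values were seen. Subunits were assigned by the known place of each protein rather than by symbol. By symbol, 12 of 29 Mrps and 14 of 49 Mrpl genes had a peak in Hoxb13 control replicate 1, and 21 and 38 in Paro/Neo replicate 2. Genome sequence, and so exons, introns and protein sequences, were not used here. RefSeq promoters matched 69 members and left 9 without a listed start. Cytosolic ribosomal genes were taken by symbol, leaving out Rps6k kinases and pseudogenes. Alternatives were windows of 1 kb, 10 kb and the body alone, −log10 q of at least 2, overlap of at least 100 bp, 20 length classes or none, nearest gene, equal list lengths, leaving out each library, and, added after seeing the data, like neighbour number, peaks near no other gene, and the crossed pairing.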

Additional observations from a re-analysis of the deposited data

Results flagged for a closer look

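Peaks on the mitochondrial chromosome stood outside the comparisons and were looked at because the RNAs of the mitochondrial ribosome are encoded there. A peak lay over mt-Rnr1, the 12S ribosomal RNA gene of the small subunit, in 7 of the 8 libraries, the exception being Meis1 Paro/Neo replicate 1. Its fold ran from 1.39 to 1.59. Over mt-Rnr2, the gene of the large subunit's RNA, a peak lay in 6 of 8 libraries, with folds from 1.35 to 1.59. In Hoxb13 control replicate 1, Paro/Neo replicate 1 and Paro/Neo replicate 2, a single peak of 6377, 6279 and 6423 bp ran over both genes and beyond them. Each library with a peak over mt-Rnr1 also held a peak of higher fold (1.41 to 1.67) outside both genes. Peaks on this chromosome were thus not particular to the ribosomal RNA genes. Every peak on this chromosome stood at or below the 0.972 percentile of fold within its list, and both control and Paro/Neo libraries of both antibodies held them. The inputs were not analysed here, so a level without antibody is not known for these peaks.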

How the results depend on the processing

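Between antibodies the difference of 9.01 points became −1.92 with lists of equal length (exact permutation test, p = 0.200), and ran from 1.52 (without Hoxb13 Paro/Neo replicate 2) to 12.9 points with each library left out. The Meis1 treatment difference of −0.166 points turned to 0.0495 with 10 kb windows, 1.74 without length classes, 0.487 by nearest gene, 0.188 with like neighbour number and 1.3 with equal lists, and ran from −1.92 to 1.59 with a library left out. Exchanging the second Meis1 libraries gave −3.34 (exact permutation test, p = 0.333). The Hoxb13 treatment difference of 10.9 points became −2.95 with equal lists and ran from −6.17 (without Paro/Neo replicate 2) to 27.9 points. The causes were not tested.

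The count of 24 members with a Hoxb13 region in at least 2 libraries became 15 at −log10 q of at least 2. There the share of all genes was 15.4%, and like-length genes gave 12.1 members expected. The count became 7 with peaks near no other gene (all genes 12.9%, 8.15 expected) and 1 with equal lists (4.19%, 3.54 expected). With a library left out it ran from 3 (all genes 6.56%) to 24 (22.7%). The 3 Meis1 members became 1 with 1 kb windows (all genes 5.41%, 1.99 expected) and 1 with the body alone (4.98%, 1.61 expected). They became 1 with equal lists (2.85%, 1.20 expected) and 0 with peaks near no other gene (4.90%, 1.62 expected). With a library left out the count ran from 2 (all genes 3.84% without control replicate 1) to 3 (5.97% without Paro/Neo replicate 2). With the replicate number as a block (treatment and replicate number between antibodies) the differences stayed 9.01 (exact permutation p = 0.500), −0.166 (exact p = 1.00) and 10.9 points (exact p = 1.00). The blocked antibody test matched libraries of separate sample sets, and its 16 orders could not give a p below 0.125. Whether the numbers pair the libraries cannot be told from these data. Deviations of same-numbered libraries correlated at 0.0324 for Meis1 and −0.252 for Hoxb13. With 2 libraries per group, numbers 1 and 2 give the same correlation by construction. The crossed block for Hoxb13 made no call (exact p = 1.00), and a blocked treatment test cannot give a p below 0.500. Unknown depth and 2 libraries per group limit all of these values, and the treatment comparisons could not reach 0.05 at this size.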
